A study of Homo sapiens with 12 samples.

Results

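The 31 genes described here encode the enzymes that make sterols and fatty acids, the proteins that switch these enzymes on and off, and 1 carrier that moves sterol between membranes. They were chosen by name from what they are known to do, with no measured value in the rule, out of 60623 genes in the deposited table. The choice was made with earlier results of these data known, so it is not independent of them. By role, 7 act in the mevalonate segment (HMGCS1, MVK, PMVK, MVD, IDI1, FDPS and ACAT2) and 9 in the squalene and sterol segment (FDFT1, SQLE, LSS, TM7SF2, MSMO1, NSDHL, HSD17B7, EBP and SC5D). Another 5 act in regulation (SREBF1, SREBF2, SCAP, INSIG1 and INSIG2), 1 in sterol transport (STARD4) and 9 in the fatty acid group (ACLY, ACSS2, ACACA, FASN, ELOVL6, SCD, FADS1, FADS2 and LPIN1). In that group LPIN1 belongs to phospholipid and triglyceride synthesis.

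RNA was sequenced from A549 cells, which derive from a human lung adenocarcinoma, as 4 stable lines with 3 libraries each. The V line carried the empty lentiviral vector, the WT line carried wild-type HA-AHR (the HA-tagged aryl hydrocarbon receptor, a ligand-activated transcription factor), the SA line carried HA-AHR S489A and the SD line carried HA-AHR S489D, in which a serine is replaced by alanine or by aspartate. All 4 lines came from the same vector backbone, in which an EF1a promoter drives the insert, and all were selected with hygromycin. With 1 line for each construct, what the construct did and how the lines differ otherwise cannot be told apart, and the libraries of a line measure only the spread within that line. Fewer cells of a kind and less RNA per cell cannot be told apart in such bulk samples.

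Cells make cholesterol from acetyl-CoA through the mevalonate pathway, and long-chain fatty acids from the same precursor through acetyl-CoA carboxylase and fatty acid synthase. Both routes are governed by the sterol regulatory element-binding proteins, which are held in the endoplasmic reticulum by INSIG when sterol is plentiful and are escorted to the Golgi by SCAP for cleavage when sterol is low. The cleaved fragment enters the nucleus and binds sterol regulatory elements in the promoters of these genes, usually together with the factor NF-Y. SREBF2 mainly drives the sterol genes and SREBF1 mainly the fatty acid genes, while the liver X receptors (LXR) respond to sterol excess and promote sterol export.

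Promoter sequences from RefSeq (GRCh38.p14, 250 bases before to 50 bases after an annotated start) were matched by symbol for 27 of the 31 genes, as 39 sequences, and not for ACAT2, FASN, FDFT1 and SQLE. They were searched on both strands for TCACNCCAC, a core of the sterol regulatory element, for the NF-Y box CCAAT, and for the core of the AHR-binding element, TNGCGTG. The sterol element core was present in 1 of the 39 sequences (2.56%), that of SREBF2, against 1.13% of all 35116 promoter sequences. The NF-Y box was present in 24 of 39 (61.5%, against 34.6% of all), and the AHR core in 7 of 39 (17.9%, against 5.51% of all), which belong to ACACA, IDI1, INSIG1, LSS and SC5D. Sequences of a gene can overlap, and 1 AHR core of SC5D is counted in both of its sequences. By gene, 20 of 27 held the NF-Y box, against 39.7% of all genes with a promoter sequence. For the AHR core this was 5 of 27, against 6.69%. The following 4 promoters belong to the mevalonate and transport genes that changed, to the regulator that holds the sterol element and to the regulator that holds an AHR core. HMGCS1 has a second promoter sequence in the table, at 5:43313132-43313431, which overlaps the one shown and held no match. Matches to any of the 3 motifs, on either strand, are in capitals. A match describes letters in this window and is not evidence of binding.
HMGCS1, 5:43313363-43313662, minus strand: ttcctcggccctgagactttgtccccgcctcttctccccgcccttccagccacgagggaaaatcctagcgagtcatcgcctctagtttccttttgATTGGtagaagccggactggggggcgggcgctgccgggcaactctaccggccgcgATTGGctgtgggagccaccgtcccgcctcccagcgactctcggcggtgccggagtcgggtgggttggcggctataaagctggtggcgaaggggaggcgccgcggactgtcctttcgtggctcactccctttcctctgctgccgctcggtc
STARD4, 5:111512486-111512785, minus strand: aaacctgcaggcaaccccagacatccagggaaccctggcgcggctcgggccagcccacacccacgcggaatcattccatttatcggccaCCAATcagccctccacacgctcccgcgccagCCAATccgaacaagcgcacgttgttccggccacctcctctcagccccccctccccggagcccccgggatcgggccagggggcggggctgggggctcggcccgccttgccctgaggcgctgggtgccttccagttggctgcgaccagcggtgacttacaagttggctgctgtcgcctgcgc
SREBF2, 22:41832855-41833154, plus strand: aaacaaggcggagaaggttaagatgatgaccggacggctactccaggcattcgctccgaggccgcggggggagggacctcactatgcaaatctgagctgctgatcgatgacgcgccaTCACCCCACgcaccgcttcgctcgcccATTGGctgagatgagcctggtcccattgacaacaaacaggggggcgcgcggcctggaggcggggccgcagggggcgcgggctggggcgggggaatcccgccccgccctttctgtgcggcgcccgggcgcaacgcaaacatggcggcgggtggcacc
INSIG1, 7:155297628-155297927, plus strand: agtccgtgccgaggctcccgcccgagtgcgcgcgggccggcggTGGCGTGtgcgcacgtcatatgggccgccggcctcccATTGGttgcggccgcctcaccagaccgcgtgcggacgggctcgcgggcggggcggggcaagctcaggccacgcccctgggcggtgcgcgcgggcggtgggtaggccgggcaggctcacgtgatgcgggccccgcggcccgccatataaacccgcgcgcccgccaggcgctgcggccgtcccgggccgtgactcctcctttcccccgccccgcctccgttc

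Library totals ran from 7844045 to 11765576 expected counts, and all 31 genes passed the filter on low counts in all 6 comparisons between pairs of lines. Levels are given in CPM, which are counts scaled to a library total of 1000000 after TMM, a normalization that sets the bulk of genes equal between libraries. AHR stood at 65.8 to 74.3 CPM in V, 234 to 285 in WT, 219 to 230 in SA and 202 to 220 in SD. No library repeated another of its own line within counting noise, and the largest difference between replicates was that of SD replicates 1 and 3 (chi-square per degree of freedom 6.432, against 2.448 for the closest pair). The summed level of 6 epithelial and A549 markers was 7214 to 7389 CPM in V, 5944 to 6028 in WT, 5817 to 6014 in SA and 5428 to 5673 in SD, with KRT19 and EPCAM at or near 0. Of 5 tested against V, KRT8 and KRT18 passed as lower in each AHR line, and AKR1B10 also in SD. These shares are 40%, 40% and 60% in WT, SA and SD, against 5.24%, 7.17% and 5.41% of all genes tested. AKR1C1 was higher in SD (mean 93.5 CPM, against 81.3 in V) at an unadjusted p under 0.05 from edgeR, and did not pass. At the same time the summed level of 8 markers of other cell types was 32.1 to 44.9 CPM in every library, nearly all of it CD68 and COL1A1, with VWF and APOA2 at 0. Within that sum COL1A1, a fibroblast collagen, was lower than in V in WT (log2 fold change −0.79, adjusted p = 0.00649) and in SA (−0.60, adjusted p = 0.0278), at −0.50 in SD (adjusted p = 0.0928), and CD68, a macrophage marker, was higher in SA (0.36, adjusted p = 0.0320), at 0.19 in WT (adjusted p = 0.355) and 0.28 in SD (adjusted p = 0.114), from edgeR. Whether these marker levels have a part in the results below was not tested.

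The genes were expressed over a wide range. Per kilobase of exon, the mean level in V was highest for SCD, the stearoyl-CoA desaturase, at 350 CPM per kilobase, then for ACLY, which makes cytosolic acetyl-CoA, at 222, and for FASN, the fatty acid synthase, at 171. The lowest were SC5D, a late sterol desaturase, at 1.99, INSIG2 at 2.37 and MVK, the mevalonate kinase, at 3.39 CPM per kilobase, so SCD stood 176 times above SC5D. Together SCD, FASN and ACLY held between 51.9% and 52.9% of the summed CPM of the 31 genes in each line. That sum was 8595 to 8712 CPM in V, 8298 to 8503 in WT, 8416 to 8582 in SA and 8623 to 8943 in SD. The WT and SA libraries lay below those of V, and the SD and V libraries overlapped.

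**Figure D1:**
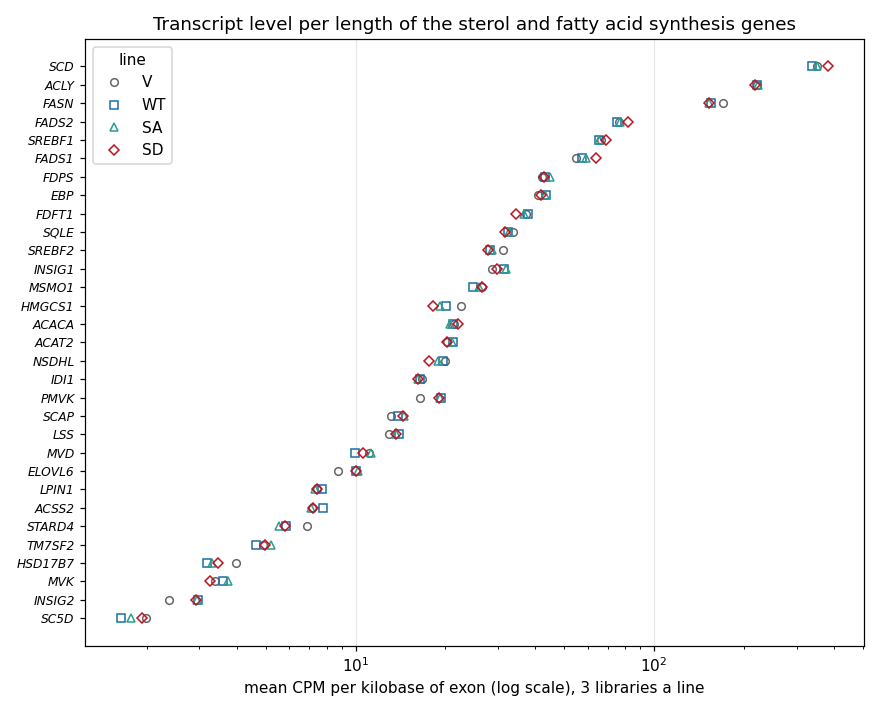
Mean level of each of the 31 genes per kilobase of exon in the 4 lines, on a log axis, with 1 symbol per line and 3 libraries a line. The span from SC5D to SCD is far wider than any difference between lines for a single gene.

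Each line that carried AHR was compared with V to ask whether raising AHR, in any of its forms, goes with a different level of these genes. In WT, 2 of the 31 genes passed an adjusted p of 0.05 (6.45%, against 5.24% of all genes tested), both lower, where 2.31% of all genes were higher and 2.93% lower. In SA, 4 passed (12.9%, against 7.17% of all genes), 3 lower and 1 higher, where 3.29% of all genes were lower and 3.88% higher. In SD, 2 passed (6.45%, against 5.41% of all genes), 1 lower and 1 higher, where 2.49% were lower and 2.92% higher. Differences were small: over the 31 genes the log2 fold change ran from −0.32 to 0.32 in WT, from −0.32 to 0.31 in SA and from −0.31 to 0.31 in SD, with medians of −0.01, 0.00066 and 0.0035 for WT, SA and SD, beside 0.0018, −0.0024 and 0.0030 over all genes. The 3 comparisons share the V libraries and are not independent. Tests were edgeR's quasi-likelihood test with Benjamini-Hochberg adjustment over all genes tested.

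**Figure D2:**
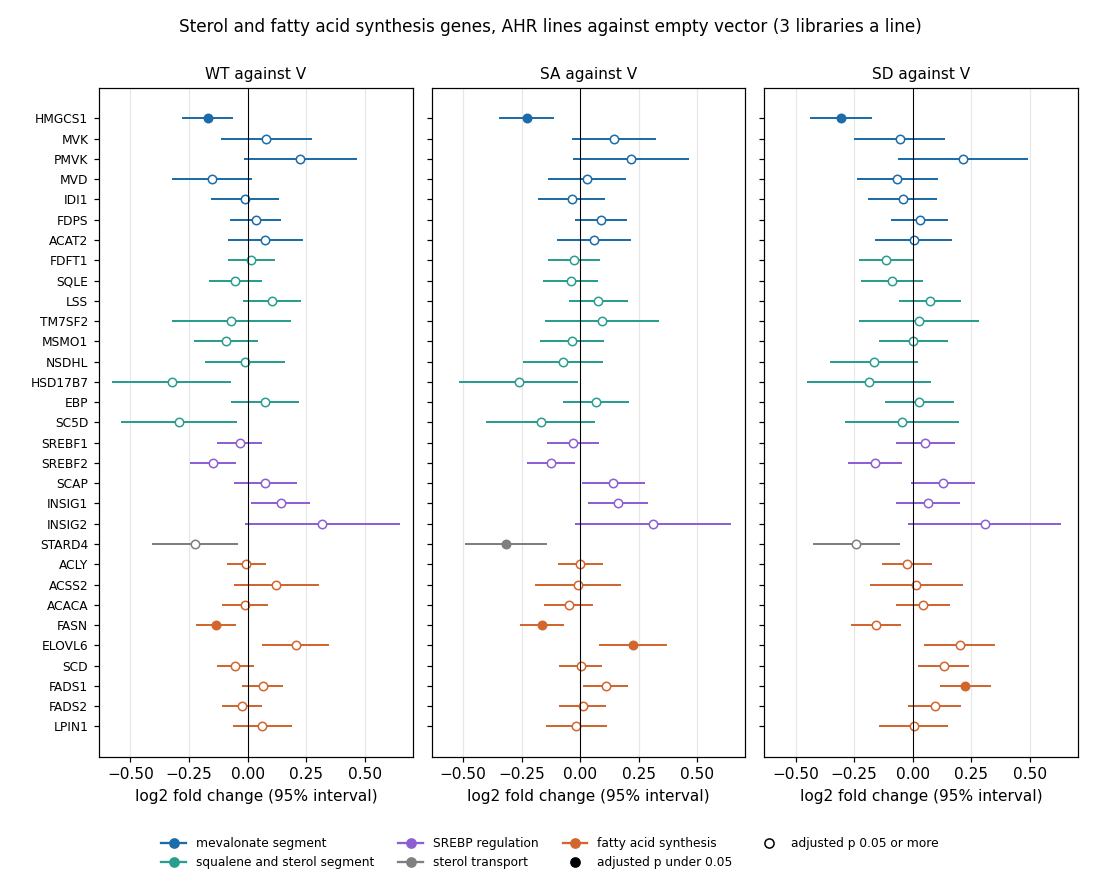
Log2 fold change of each of the 31 genes in WT, SA and SD against V, with 95% intervals from edgeR, coloured by role, and filled points where the adjusted p was under 0.05. HMGCS1 is filled in all 3 panels, and most intervals include 0.

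In the mevalonate segment, HMGCS1 was lower in all 3 AHR lines. It encodes the cytosolic HMG-CoA synthase, which commits acetyl-CoA to the pathway (ENSG00000112972, GRCh38 5:43287470-43313512, minus strand). Its level was 147, 149 and 153 CPM in V replicates 1 to 3, 137, 132 and 130.1 in WT, 121, 132 and 130.4 in SA, and 113, 133 and 117 in SD. Every library of each AHR line lay below every V library, and the SD libraries spread the most. The level fell from V by 0.17 on the log2 scale in WT (SE 0.05, adjusted p = 0.0463), by 0.23 in SA (SE 0.05, adjusted p = 0.00879) and by 0.31 in SD (SE 0.06, adjusted p = 0.00252), from edgeR. In SD the fall was 19.1% with a 95% interval from 11.6% to 26.0%. The SD call was kept with each of the 6 libraries left out in turn, at −0.38 to −0.26, and was −0.26 (adjusted p = 0.0109) without SD replicate 1. The SA call was lost without V replicate 3 (adjusted p = 0.0529). The WT call was lost in all 6 such fits (adjusted p from 0.0596 to 0.194) and by DESeq2 (adjusted p = 0.0732). An antisense lncRNA, ENSG00000261604, shares 37.68% of the exon bases of HMGCS1 and was counted at 25 to 63 per library, against at least 1078 for HMGCS1; the strand setting of the counting was not given in the sources used here.

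The other 6 genes of that segment did not pass the test in any line. With HMGCS1 included, the segment's log2 fold changes ran from −0.17 to 0.23 in WT, from −0.23 to 0.22 in SA and from −0.31 to 0.21 in SD, and the top of each range was PMVK, the phosphomevalonate kinase, which also had the widest spread of any of the 31 genes in SD (coefficient of variation 17.7%). None of the 9 genes of the squalene and sterol segment passed in any line, with a lowest adjusted p of 0.134. Their log2 fold changes ran from −0.32 to 0.10 in WT, from −0.26 to 0.09 in SA and from −0.19 to 0.07 in SD. HSD17B7, the ketosteroid reductase of sterol synthesis, was at the bottom of the range in all 3 lines, and its deposited counts were not whole in 11 of the 12 libraries, so some of its reads also fitted another gene.

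STARD4 carries sterol between membranes and is a known target of SREBF2 (ENSG00000164211, GRCh38 5:111496033-111512590, minus strand). It stood at 40.3, 36.5 and 40.4 CPM in V, at 30.5, 35.1 and 34.4 in WT, at 31.7, 31.4 and 31.1 in SA, and at 32.7, 35.4 and 31.1 in SD. No library of an AHR line reached the lowest V library. It fell by 0.32 on the log2 scale in SA (SE 0.08, adjusted p = 0.0165 from edgeR), and the differences of −0.22 in WT (adjusted p = 0.150) and −0.24 in SD (adjusted p = 0.122) did not pass. The SA call was lost on leaving out V replicate 1 or 3, or SA replicate 2 or 3 (adjusted p from 0.0599 to 0.0936).

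Among the regulators, none of the 5 passed the test in any line. SREBF2, the sterol-directed factor (ENSG00000198911, GRCh38 22:41833079-41907307, plus strand), came nearest, with 252, 256 and 245 CPM in V, 229.6, 226 and 225 in WT, 229, 231 and 229.9 in SA, and 223, 216 and 233 in SD. The V libraries lay above all others, by a difference of −0.15 in WT (adjusted p = 0.0534), −0.13 in SA (adjusted p = 0.121) and −0.16 in SD (adjusted p = 0.0875) on the log2 scale, from edgeR. With at least 10 counts required in every library the WT value passed (adjusted p = 0.0379), and with all 12 libraries in 1 fit the SD value passed (adjusted p = 0.0414).

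SREBF1, the factor directed more to fatty acid genes, read 557, 566 and 522 CPM in V, 568, 522 and 519 in WT, 583, 515 and 513 in SA, and 623, 539 and 542 in SD. The lines overlapped, and against V the log2 fold change came to −0.03 for WT, −0.03 for SA and 0.05 for SD. SCAP, the escort, read 82.6, 85.9 and 80.3 CPM in V, 84.7, 83.5 and 94.2 in WT, 97.6, 89.8 and 87.4 in SA, and 92.9, 86.0 and 92.4 in SD. Its difference from V was 0.08, 0.14 and 0.13, with adjusted p of 0.608, 0.207 and 0.313 from edgeR.

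INSIG1, the retention protein that is itself a target of the pathway (GRCh38 7:155297776-155310235, plus strand), read 96.5, 108 and 108 CPM in V, 112, 122 and 111 in WT, 115, 114 and 121 in SA, and 105, 115 and 106 in SD. The WT and SA libraries lay above those of V, and those of SD overlapped them. Against V the log2 fold changes were 0.14, 0.16 and 0.07, with adjusted p of 0.207, 0.110 and 0.670 from edgeR. INSIG2 was far less abundant, at 8.23, 9.97 and 9.89 CPM in V, 12.6, 11.9 and 10.6 in WT, 13.0, 10.7 and 11.2 in SA, and 11.2, 11.2 and 12.3 in SD. Every AHR library exceeded every V library, yet its log2 fold changes of 0.32, 0.31 and 0.31 had adjusted p of 0.302, 0.285 and 0.318 and SE of 0.16 in each line, from edgeR.

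Among the fatty acid genes, FASN (ENSG00000169710, GRCh38 17:82078338-82098294, minus strand) was lower in WT and SA, ELOVL6 was higher in SA and FADS1 was higher in SD. FASN read 1550.4, 1615 and 1603 CPM in V, 1520.1, 1421 and 1406 in WT, 1464, 1382 and 1418 in SA, and 1456, 1389 and 1425 in SD, so every AHR library lay below every V library. It fell by 0.13 in WT (SE 0.04, adjusted p = 0.0377) and by 0.16 in SA (SE 0.04, adjusted p = 0.0204) on the log2 scale, and the difference of −0.16 in SD missed the threshold (SE 0.05, adjusted p = 0.0725), from edgeR. The SD value passed without SD replicate 1 (adjusted p = 0.0112), by DESeq2 (adjusted p = 0.00781), with all 12 libraries in 1 fit (adjusted p = 0.0320) and with at least 1 count as the filter (adjusted p = 0.0481). The WT call was kept when WT replicate 1 was left out (adjusted p = 0.0123) and lost with any other library left out (adjusted p from 0.0614 to 0.191), as well as with all 12 libraries in 1 fit (adjusted p = 0.102). Likewise the SA call was kept without SA replicate 1 (adjusted p = 0.00267) and lost without any other (adjusted p from 0.0554 to 0.140).

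ELOVL6 lengthens the palmitate that FASN makes (ENSG00000170522, GRCh38 4:110045846-110199199, minus strand). It read 63.6, 66.6 and 60.3 CPM in V, 70.5, 73.2 and 75.8 in WT, 70.9, 78.6 and 73.0 in SA, and 75.6, 74.4 and 68.7 in SD. The 3 V libraries lay below all the others. It rose by 0.23 on the log2 scale in SA (SE 0.07, adjusted p = 0.0455 from edgeR), while 0.20 in WT (adjusted p = 0.0788) and 0.20 in SD (adjusted p = 0.108) did not pass, and the SA call was lost by DESeq2 (adjusted p = 0.0833) and on leaving out V replicate 1 or 3, or SA replicate 2 or 3 (adjusted p from 0.0953 to 0.216).

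FADS1, the delta-5 desaturase of polyunsaturated fatty acids (ENSG00000149485, GRCh38 11:61799627-61829318, minus strand), read 552, 558 and 571 CPM in V, 584, 595 and 579 in WT, 607, 589 and 618 in SA, and 664, 660.4 and 637 in SD. The SD libraries lay above every other library. It rose by 0.22 on the log2 scale in SD (SE 0.05, adjusted p = 0.00669), which is 16.8%, and stood at 0.06 in WT (adjusted p = 0.439) and 0.11 in SA (adjusted p = 0.158), from edgeR. The SD call was lost without V replicate 1 (adjusted p = 0.0715) or SD replicate 2 (adjusted p = 0.0576) and was kept without SD replicate 1 (adjusted p = 0.00416). FADS1 and FADS2 share 490 exon bases on opposite strands. The other 6 genes of this group, ACLY, ACSS2, ACACA, SCD, FADS2 and LPIN1, passed in no line against V.

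**Figure D3:**
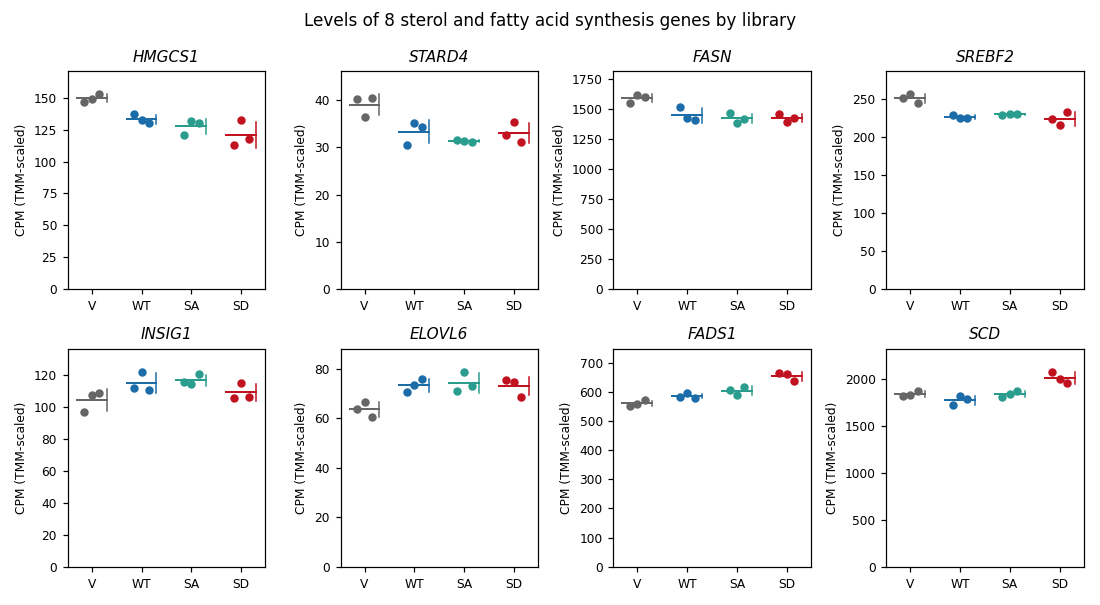
Level in CPM of HMGCS1, STARD4, FASN, SREBF2, INSIG1, ELOVL6, FADS1 and SCD, with 1 point per library, the line mean as a bar and the SD as a whisker, 3 libraries a line. HMGCS1, STARD4, SREBF2 and FASN sit highest in V, and FADS1 and SCD sit highest in SD.

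Libraries that do not overlap between lines were counted without a test. Of the 31 genes, all WT libraries lay above all V libraries for 6 and below for 6 (19.4% each, against 11.1% and 10.8% of all genes tested). In SA the numbers were 8 above and 5 below (25.8% and 16.1%, against 12.4% and 11.5%), and in SD 5 above and 6 below (16.1% and 19.4%, against 10.7% each).

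Lines that carry AHR were compared with each other to ask whether the residue at the substituted serine goes with a different level of these genes. None of the 31 genes passed an adjusted p of 0.05 by edgeR in SD against WT, where 0.708% of all genes tested passed. None passed between SD and SA, where 0.22% of all genes did, or between WT and SA, where 0.0803% did. Their lowest adjusted p was 0.129, 0.529 and 0.616, in the same order. At an unadjusted p under 0.05, SD against WT held 5 genes, SCD, FADS1 and FADS2 higher and HMGCS1 and FDFT1, the squalene synthase, lower, where 5.83% of all genes were higher and 4.82% lower at that level. SD against SA held 3, with SCD and FADS1 higher and MVK lower (4.52% and 4.01% of all genes), and WT against SA held 1, MVD, the mevalonate diphosphate decarboxylase, lower (4.1% of all genes lower and 3.22% higher). By DESeq2, 1 of the 31 genes, SCD, passed in SD against WT and 0 passed in the other 2 comparisons. Log2 fold changes ran from −0.16 to 0.24 between SD and WT, from −0.20 to 0.13 between SD and SA, and from −0.18 to 0.13 between WT and SA. The SD libraries lay above all WT libraries for 4 of the 31 genes and below for 1 (12.9% and 3.23%, against 8.32% and 7.66% of all genes), above all SA libraries for 2 and below for 1 (6.45% and 3.23%, against 6.81% and 6.82%), and the WT libraries lay above all SA libraries for 1 and below for 2 (3.23% and 6.45%, against 6.53% and 6.32%).

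**Figure D4:**
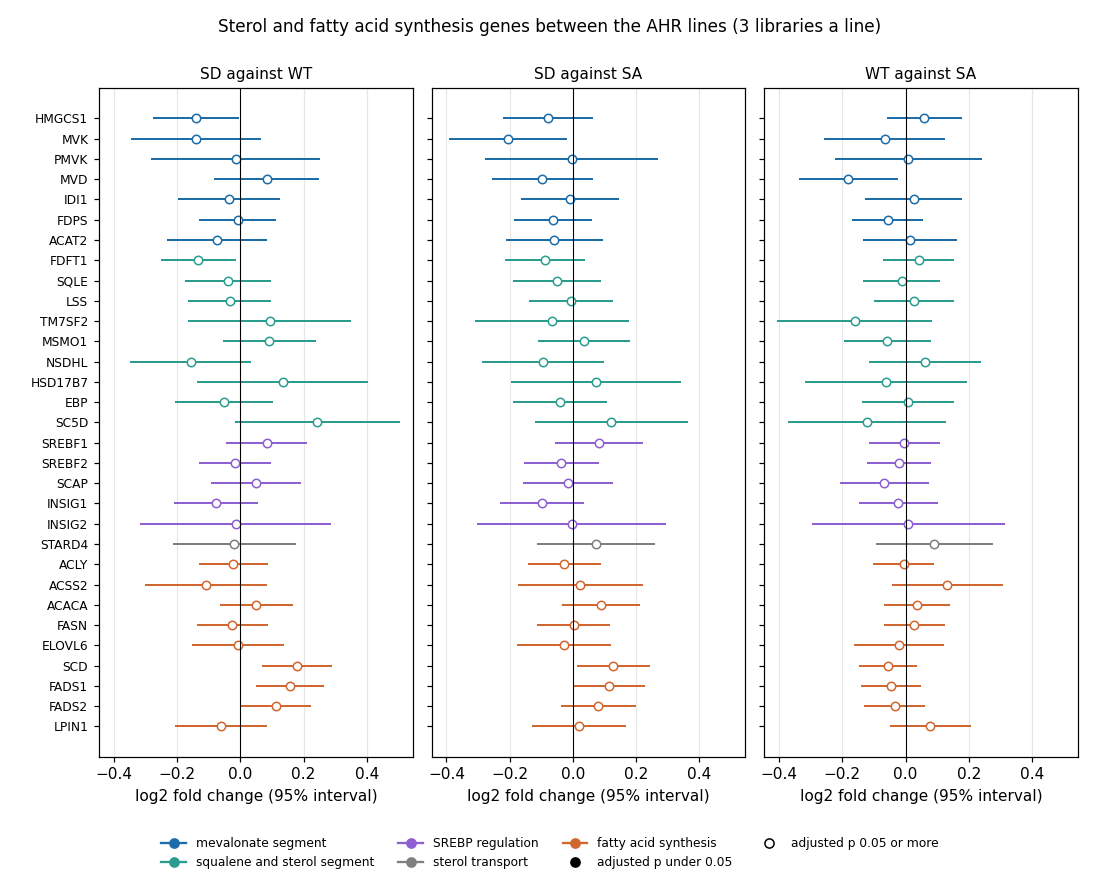
Log2 fold change of each of the 31 genes between the lines that carry AHR, with 95% intervals from edgeR, coloured by role; a filled point would mark an adjusted p under 0.05. No point is filled, and SCD, FADS1 and FADS2 lie above 0 in SD against WT.

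SCD introduces the first double bond into stearate and palmitate and is described here by library although its values were seen before it was singled out (ENSG00000099194, GRCh38 10:100347233-100364826, plus strand). It read 1813, 1824 and 1870.5 CPM in V, 1721, 1814 and 1779 in WT, 1803, 1839 and 1873 in SA, and 2072, 2001 and 1949.7 in SD. All 3 SD libraries lay above the other 9. The difference of SD from WT was 0.18 on the log2 scale (SE 0.05, adjusted p = 0.129 from edgeR), which is 13.3% with a 95% interval from 5.14% to 22.1%. It was 0.13 against SA (adjusted p = 0.529) and 0.13 against V (adjusted p = 0.150). The difference from WT passed in 0 of 6 edgeR fits with a library left out (adjusted p from 0.0725 to 0.399). Without SD replicate 1 it was 0.16 (adjusted p = 0.118). It passed by DESeq2 (adjusted p = 0.00772), with all 12 libraries in 1 fit (adjusted p = 0.0350) and with at least 1 count as the filter (adjusted p = 0.0341).

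FADS1 differed between SD and WT by 0.16 (SE 0.05, adjusted p = 0.193) and between SD and SA by 0.11 (adjusted p = 0.575), and FADS2, the delta-6 desaturase, by 0.11 between SD and WT (adjusted p = 0.440), from edgeR. HMGCS1 differed by −0.14 between SD and WT (adjusted p = 0.433), with a 95% interval from −17.2% to −0.553%, by −0.08 between SD and SA (adjusted p = 0.784) and by 0.06 between WT and SA (adjusted p = 0.855). For FASN the 95% interval of the difference ran from −8.96% to 5.98% between SD and WT, from −7.31% to 8.32% between SD and SA and from −4.49% to 8.70% between WT and SA. These bounds limit the size of a difference and do not show that the lines are alike.

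Genes around the pathway were taken from lists by function, which were drawn up with earlier results of these data known. None of the 12 genes of SREBP cleavage and maturation passed the test in any of the 6 comparisons by edgeR. In the list of LXR and sterol export, storage and transport genes, 13 of 17 were tested. Of these, 1 passed as higher in WT against V, 4 in SA and 3 in SD. These shares are 7.69%, 30.8% and 23.1%, against 5.24%, 7.17% and 5.41% of all genes in either direction. None passed as lower, and 0 passed between the AHR lines. Counted by sign alone, 5 were higher and 8 lower in WT against V, 8 and 5 in SA, and 9 and 4 in SD. TMEM97 was lower than in V in WT, SA and SD, each at an unadjusted p under 0.05 from edgeR, and did not pass. Mean levels of MYLIP were also lower in each AHR line (WT 6.82, SA 6.62, SD 6.48 CPM) than in the vector line (7.54 CPM). Every WT and SD library of MYLIP lay below every V library, the SA libraries overlapped V, and no difference passed. ABCG1 was scarce (mean CPM: V 3.41, WT 3.44, SA 3.90, SD 4.36), its libraries overlapped those of V in every line, and it did not pass. Over the 13 genes the median log2 fold change against V came to −0.01 for WT, 0.06 for SA and 0.14 for SD, beside 0.0018, −0.0024 and 0.0030 over all genes.

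ABCA1, the cholesterol efflux pump, read 29.8, 31.6 and 34.7 CPM in V, 36.6, 42.1 and 40.3 in WT, 43.4, 41.2 and 44.8 in SA, and 51.6, 48.9 and 46.6 in SD. All AHR-line libraries exceeded those of V. It rose against V by 0.31 in WT (SE 0.09, adjusted p = 0.0342), 0.43 in SA (SE 0.08, adjusted p = 0.00131) and 0.61 in SD (SE 0.09, adjusted p = 2.49e-05) on the log2 scale, from edgeR, and SD stood above WT by 0.30 (adjusted p = 0.103). The SA and SD calls were kept in all 6 fits with a library left out, while the WT call was lost by DESeq2 (adjusted p = 0.0915) and without V replicate 1, V replicate 2, WT replicate 2 or WT replicate 3 (adjusted p from 0.0882 to 0.197).

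NR1H3, which encodes LXR-alpha, read 27.8, 23.6 and 28.0 CPM in V, 26.7, 33.1 and 29.8 in WT, 33.3, 32.9 and 32.0 in SA, and 36.2, 37.5 and 40.4 in SD. The SA and SD libraries lay above those of V, and the WT libraries overlapped V. It rose by 0.31 in SA (adjusted p = 0.0407) and by 0.53 in SD (adjusted p = 6.11e-04), and stood at 0.18 in WT (adjusted p = 0.367), from edgeR, where the SA call was lost with any of the 6 libraries left out (adjusted p from 0.0559 to 0.184) and by DESeq2 (adjusted p = 0.109), and the SD call was kept in all 6 fits. NPC2, the lysosomal cholesterol carrier, read 47.9, 41.6 and 46.3 CPM in V, 50.2, 56.3 and 53.2 in WT, 58.6, 61.8 and 68.4 in SA, and 60.1, 64.9 and 59.3 in SD. Each AHR line lay above V, and it rose by 0.48 in SA (adjusted p = 1.70e-04) and 0.44 in SD (adjusted p = 5.52e-04), and stood at 0.24 in WT (adjusted p = 0.0831). RXRA, the partner receptor of LXR, read 107, 113 and 107 CPM in V, 121, 115 and 133 in WT, 131, 132 and 129 in SA, and 114, 118 and 129 in SD. It rose by 0.26 in SA (adjusted p = 0.00314) and stood at 0.17 in WT (adjusted p = 0.0993) and 0.14 in SD (adjusted p = 0.219).

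**Figure D5:**
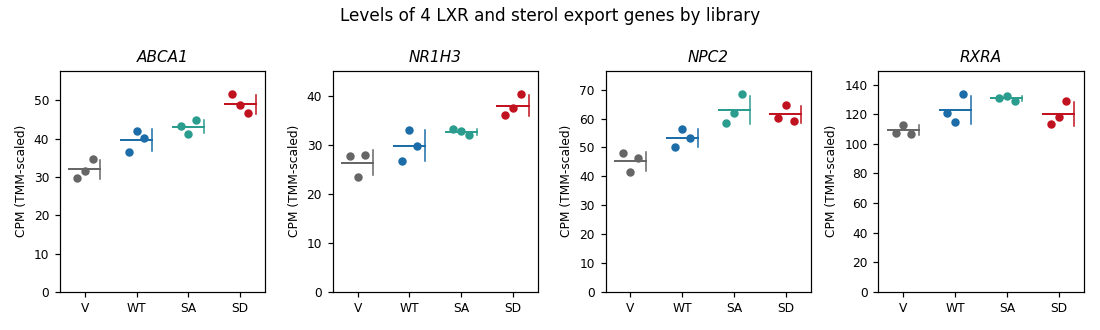
Level in CPM of ABCA1, NR1H3, NPC2 and RXRA in each library, with the line mean as a bar and the SD as a whisker, 3 libraries a line. ABCA1 and NR1H3 sit highest in SD, while RXRA sits highest in SA by its mean.

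In the isoprenoid branches of the mevalonate pathway, 1 of 14 genes passed, DOLK, the dolichol kinase, which rose by 0.46 in SA against V (adjusted p = 0.00214 from edgeR), a share of 7.14% against 7.17% of all genes. Among other genes of fatty acid, phospholipid and triglyceride synthesis, 1 passed as higher and 1 as lower in WT against V of 24 tested. In SA 2 passed as higher and 1 as lower of 23, and in SD 1 as higher and 1 as lower of 23. These shares are 8.33%, 13.0% and 8.70%, against 5.24%, 7.17% and 5.41% of all genes. ELOVL7, an elongase of saturated very long chains, was the gene that fell, by 0.51 in WT (adjusted p = 0.00650), 0.42 in SA (adjusted p = 0.0249) and 0.65 in SD (adjusted p = 0.00202). PCYT1A, which makes the head group donor of phosphatidylcholine, rose by 0.33 in WT (adjusted p = 0.0134) and 0.27 in SA (adjusted p = 0.0408), AGPAT2, which makes phosphatidic acid, by 0.24 in SA (adjusted p = 0.0308) and FADS3 by 0.26 in SD (adjusted p = 0.0353). Of 18 genes of fatty acid oxidation, ACADVL, the very long chain acyl-CoA dehydrogenase, passed in SD against V, where it rose by 0.19 (adjusted p = 0.0300), a share of 5.56% against 5.41% of all genes. The ELOVL7 call in SD was kept with each library left out in turn, while the calls of ELOVL7 and PCYT1A in WT were kept in 4 of 6 such fits, of ELOVL7 in SA in 3, of AGPAT2 in SA in 2, and of PCYT1A in SA, FADS3 in SD and ACADVL in SD in 1. None of these lists held a gene that passed between the AHR lines by edgeR.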

How the data were processed

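RNA-seq data of 12 libraries, 3 from each of 4 A549 lines, were used as deposited. The authors trimmed reads with Trimmomatic 0.39 and estimated expected counts per gene with RSEM, per the labels and the study's methods; reads were not reprocessed here. A second deposited table holds the authors' own fold changes, p-values and false discovery rates and was not used. Expected counts were rounded to whole numbers. Every comparison used just the 6 libraries of its 2 lines in edgeR 4.0.16 in R 4.3.3 (filterByExpr with a minimum count of 10 and a minimum total of 15, TMM, quasi-likelihood test, two-sided, Benjamini-Hochberg adjustment over all genes tested, threshold 0.05). CPM is the count divided by the library total times its TMM factor (0.9926 to 1.005), and a count of 3 corresponds to 0.255 to 0.3825 CPM. Intervals of 95% come from edgeR's SE and degrees of freedom. Groups were taken from the labels. Deposited gene coordinates equal GENCODE release 44 for 25 of the 31 genes. The script was tested on simulated data.

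The 31 genes and the other gene lists (SREBP maturation, LXR and sterol export, isoprenoid branches, other lipid synthesis, fatty acid oxidation, and marker genes) were chosen with earlier results of these data known. Values by library are given for genes called in at least 1 comparison and for the 5 regulators, and at most 4 called genes are named from each other list. Alternatives were a filter of at least 1 count in total, at least 10 counts in every library, DESeq2 size factors, DESeq2 1.42.0, all 12 libraries in 1 fit, the replicate number as a block, and each library left out. Same-numbered libraries of 2 lines had deviations that correlated at −0.0375 to 0.106, so the numbers were not treated as pairs.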

Additional observations from a re-analysis of the deposited data

How the results depend on the processing

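Of the 31 genes, 2 passed in WT against V, 4 in SA against V and 2 in SD against V, and 0 in each of the comparisons between AHR lines. With at least 1 count as the filter, 1 passed in WT against V, 3 in SD against V and 1 in SD against WT. Over all genes tested the shares were 3.61%, 3.76% and 0.98%, in the same order. By DESeq2, 1 passed in WT against V, 3 in SA against V, 3 in SD against V and 1 in SD against WT. Of all genes given an adjusted p by DESeq2, 4.5%, 6.07%, 4.15% and 0.904% passed in these comparisons. With at least 10 counts in every library, 3 passed in WT against V, where 6.61% of all genes did. With all 12 libraries in 1 fit, 0 passed in WT against V, 4 in SD against V and 1 in SD against WT. The shares of all genes in that fit were 3.9%, 5.2% and 0.9%. With each library left out in turn, 0 to 1 passed in WT against V, 0 to 4 in SA against V and 1 to 3 in SD against V. Those fits called 2.88% to 4.77%, 4.08% to 7.88% and 3.29% to 5.64% of all genes. With the replicate block, 0 passed in WT against V, 2 in SD against WT (SCD and FADS1) and 1 in SD against SA (SCD). The block called 3.43%, 1.65% and 1.1% of all genes in these comparisons. The counts of the comparisons not named under a setting were as above. The titles give same-numbered libraries a number in common, and whether they were handled together was not tested. Among libraries of other lines, 6 of 12 libraries correlated best with a library of their own number. In these settings no gene's direction reversed past the threshold, and over single genes of the 31, 2168 values kept their side of the threshold, 12 newly passed and 34 no longer passed, 27 of the latter with a library left out. Over all genes, the comparisons of SD with WT, of SD with SA and of WT with SA held 105, 33 and 12 that passed. Those counts were 252, 153 and 103 with at least 1 count as the filter, 245, 165 and 25 with the replicate block, and 45 to 145, 11 to 56 and 2 to 25 with a library left out, and WT against SA gave 5 with all 12 libraries in 1 fit. In WT against V, 774 passed, 507 with the block and 434 to 720 with a library left out. In SA against V, 1069 passed, 1345 with the block and 621 to 1195 with a library left out. In SD against V, 806 passed, 664 with the block and 502 to 856 with a library left out. The cause of these changes was not tested. At these depths INSIG2 had as few as 80 counts in a library, and its intervals are the widest of the 5 regulators.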
